A study of Mus musculus with 8 samples.

Results

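Circulating myeloid cells of Ythdf2 conditional knockout mice were compared between animals whose tumor had been irradiated and animals whose tumor had not. The mice carried MC38 tumors, a colon carcinoma line of the C57BL/6 background. Blood IR denotes blood taken 3 days after a single dose of 20 Gy to the tumor, and blood control denotes blood of tumor-bearing mice that were not irradiated, which the study's methods describe as sham-treated. The knockout (cKO) mice were LyzCre+;Ythdf2 fl/fl, in which Cre is expressed from the lysozyme 2 locus in myeloid cells, and the WT mice were Ythdf2 fl/fl without Cre, so every animal carried the floxed allele. The animals were 8 to 10 weeks old. Blood cells were sorted for CD45, CD11b and high Ly6C, antigens by which monocytic suppressor cells of the myeloid line are picked. Each genotype and treatment was represented by the joined blood of 5 mice, its cells carried a hashtag antibody for the genotype, and both genotypes of a treatment were run together as 1 droplet library.

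Cells labelled cKO were barcodes with at least 500 unique molecular identifiers (UMIs) of genes, at least 200 genes, at most 25% mitochondrial UMIs and at least 20 hashtag UMIs, in which the cKO hashtag (B0302) had at least 4 times the count of the WT hashtag (B0301). This left 4014 cells in blood control and 3936 in blood IR, 7950 of the 32121 barcodes that passed the same filters on quality and hashtag depth in all 4 libraries. With 1 pool of mice in 1 library on each side, no error within a group, no test and no p-value could be had, and every interval below is a 95% interval that covers counting error only. Differences between mice, sorts or droplet runs cannot be told apart from the effect of IR.

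Neutrophils and monocytes leave the bone marrow as largely finished cells. Neutrophil precursors make the proteins of primary granules first and those of secondary granules next, and the transcripts of both are mostly lost by the time the cells circulate. Classical monocytes express high Ly6c2 and, in part, become nonclassical monocytes, which patrol the vessel wall and depend on the nuclear receptor Nr4a1. Interferons bind receptors present on nearly all of these cells and switch on antiviral genes. YTHDF2 binds RNA that carries N6-methyladenosine and promotes its decay.

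The cKO cells held 20226489 UMIs in blood control and 20342177 after IR, with medians of 3172 and 2854 UMIs per cell. The 2 blood libraries shared 24 of their barcodes (9622 and 9237 after filters). Lyz2, at the locus that holds Cre, was at 146 CPM (a gene's UMIs per 1e6 UMIs of its group) in blood control and 87.0 CPM in blood IR in cells labelled cKO, against 14149 and 13448 CPM in cells labelled WT. Ythdf2 went against its label, with 301.98 and 335 CPM in cells labelled cKO and 30.6 and 33.0 CPM in cells labelled WT. The 3′ tags counted here may lie outside the deleted part of Ythdf2 and would then not show its loss. Why the level was higher in cells labelled cKO than in cells labelled WT was not tested. Lyz1 and Lyz2 are close paralogs whose reads the counting could split, so the level of each is uncertain. Lyz1 was at 164 and 244 CPM in cells labelled cKO and at 10.5 and 5.42 CPM in cells labelled WT. Both genes in cells labelled cKO were thus far below Lyz2 in cells labelled WT. The cells are called "labelled cKO" for these reasons.

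The sort is labelled as CD11b+ myeloid cells with high Ly6C, and most of the sorted cells resembled neutrophils. Clustering of the cells labelled cKO and naming from marker genes gave neutrophil-like cells as 67.5% (66.0 to 69.0) of blood control and 74.4% (73.0 to 75.8) of blood IR, a difference of 6.93 percentage points (4.93 to 8.91). Monocyte-like cells, led by Ly6c2, Fn1 and F13a1, made up 13.3% (12.3 to 14.4) and 19.97% (18.73 to 21.25). Nonclassical monocyte-like cells, led by Ace, Ear2 and Eno3, made up 10.9% (9.92 to 11.9) and 3.20% (2.67 to 3.80), a difference of -7.66 percentage points (-8.78 to -6.56). Their shares depended on the clustering. They were 13.7% and 7.83% without the interferon and cell cycle genes, and 7.30% and 1.73% at a resolution of 1.2. The leading genes of this class also held the class II antigen presentation genes H2-Ab1, H2-Aa, H2-Eb1 and Cd74. At a resolution of 1.2 an unnamed cluster led by H2-Eb1 and Cd209a held 181 control and 79 IR cells. Dendritic cell-like cells were 1.37% and 0.71%, NK cell-like cells 1.49% and 1.14%, and B cell-like cells 0.57% and 0.18%. Ly6c2, the gene of the sorted Ly6C antigen, was at 231 and 147 CPM in neutrophil-like cells against 1517 and 1865 CPM in monocyte-like cells, while Ly6g, a neutrophil surface gene, was at 188 and 145 CPM in the former and 1.43 and 1.06 CPM in the latter. Itgam (CD11b) and Ptprc (CD45) were present in each of these classes. With a hashtag ratio of 10 the difference in the monocyte-like share was 0.816 points (-0.77 to 2.41), and its sign is then within counting error. In that clustering monocyte-like cells numbered 592 in blood control and 617 in blood IR, against 534 and 786 in the main one. The main clustering left 4.71% of control and 0.28% of IR cells unnamed. Its unnamed control cells held classical monocyte genes at 14677 CPM, against 17011 CPM in monocyte-like and 12675 CPM in nonclassical monocyte-like control cells. With the hashtag ratio of 10, nonclassical monocyte-like cells numbered 505 in blood control and 286 in blood IR, against 436 and 126 in the main clustering. Why the monocyte-like share differed between the clusterings was not tested.

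**Figure D1:**
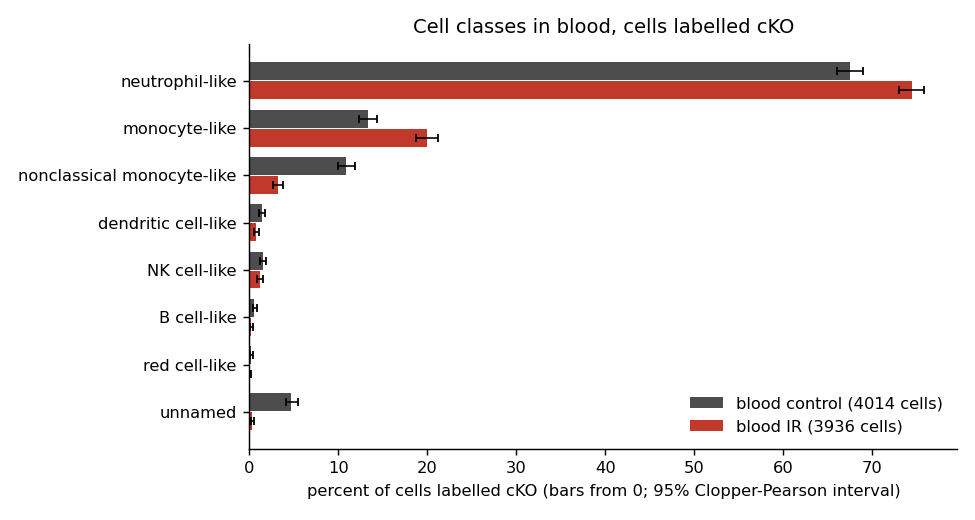
Share of cells labelled cKO in each class (horizontal axis, percent of the cells of a group) in blood control (grey) and blood IR (red). Bars start at 0 and whiskers are 95% Clopper-Pearson intervals; the nonclassical monocyte-like bar falls from 10.9% to 3.20%.

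The 2 libraries did not fill the same clusters. Of 16 clusters, 4 had at least 90% of their cells in blood control and held 1486 control cells (37.0%) and 50 IR cells (1.27%). Of these, 3 were neutrophil-like, led by Il1r2, Cd14 and Crispld2 in 1 (876 control and 27 IR cells), by Itgb2l, Mcam and Mmp8 in another (371 and 16) and by Ltf, Camp and Ngp in the last (85 and 7). The other one stayed unnamed, held 154 control cells and no IR cell, and was led by Klf9, Mt1, Chil3 and Fkbp5. A single cluster had at least 90% of its cells in blood IR (5 and 88 cells), was monocyte-like and was led by Ccnb2, Stmn1 and Birc5. These sizes follow from the genes described below and are no separate result. The 6 clusters with at least 100 cells in each library held 58.4% of control and 94.1% of IR cells, and comparisons within them are given beside the pooled ones.

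Over all cells labelled cKO, 9593 genes had at least 100 UMIs in the 2 libraries together. Of these, 40 were higher after IR by at least 1 on the log2 scale (0.417% of genes counted) and 96 were lower by at least 1 (1.0%). At a difference of 0.5 the numbers were 341 (3.55%) and 369 (3.85%). The median over all genes was 0.06. The highest were mostly genes of cell division, together with Igkc, the immunoglobulin kappa constant region. The lowest were hemoglobin genes, neutrophil granule genes, Orm1, Fkbp5 and genes of nonclassical monocytes.

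**Figure D2:**
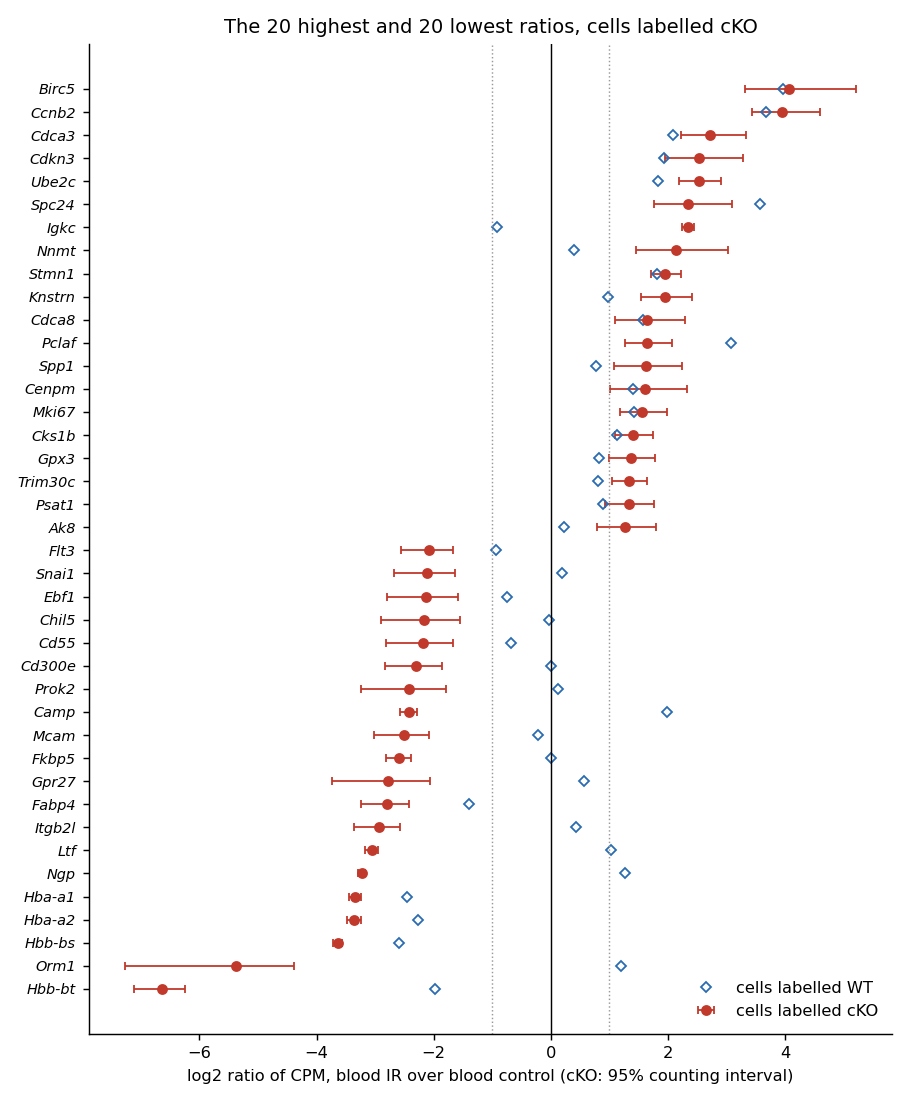
Log2 ratio of CPM in blood IR over blood control (horizontal axis) for the 20 highest and 20 lowest genes with at least 100 UMIs and UMIs in at least 20 cells. Red points are cells labelled cKO with 95% counting intervals and blue diamonds are cells labelled WT; dotted lines mark ratios of -1 and 1. Birc5 and Ccnb2 are near 4 in both, whereas Camp, Ltf and Ngp are below -2 in cKO and above 1 in WT.

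Secondary granule genes were lower after IR in cells labelled cKO. Ngp, neutrophilic granule protein (chromosome 9, 110419747 to 110423012 on the plus strand of GRCm38), was at 1122 CPM in blood control and 120 CPM in blood IR, a log2 ratio of -3.22 (-3.29 to -3.17). Ltf, which encodes the iron-binding protein lactoferrin, was at 270 and 32.3 CPM (-3.06, -3.18 to -2.94). Camp, the cathelicidin antimicrobial peptide gene, was at 119 and 22.02 CPM (-2.43, -2.58 to -2.28). All 3 genes were high in blood control and low in blood IR, but their UMIs sat in few cells. Ltf was found in 137 control and 21 IR cells, and Camp in 164 and 22. In blood IR a single cell gave 596 of 2441 Ngp UMIs, and a single cell gave 153 of 448 Camp UMIs. In the cluster led by Ltf, Camp and Ngp (85 and 7 cells), Ngp was at 27790 and 28544 CPM. The intervals take each UMI as independent and do not cover this clumping.

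Lcn2, which encodes the siderophore-binding lipocalin 2, was at 1712 and 664 CPM (-1.37). Wfdc21 was at 1648 and 571 CPM (-1.53), and Itgb2l, an integrin subunit gene, at 23.6 and 3.05 CPM (-2.93). In all, 15 of 15 genes on the secondary granule list were counted, with a median of -0.77 beside 0.06 for all genes. Of them, 7 were lower by at least 1 (1.0% of all genes counted were) and 10 by at least 0.5 (3.85%). Another 1 (Fcnb, 0.59) was higher by at least 0.5 (3.55%). The whole list summed to 9555 CPM in blood control and 4734 CPM in blood IR.

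The difference lay largely in neutrophil-like cells, which held 79.3% of the list's UMIs in blood control and 65.1% in blood IR. Within them 14 genes were counted with a median of -1.96, beside a median of 0.14 over the 6103 genes counted in that class. In monocyte-like cells the median was 0.05. Chil3, a chitinase-like lectin gene shared by granule-making neutrophils and monocytes, was at -3.30 within neutrophil-like cells and -0.10 within monocyte-like cells. After each cell was thinned to 1000 UMIs, 50.9% of neutrophil-like cells in blood control (48.9 to 52.8) and 21.9% in blood IR (20.4 to 23.4) held at least 10 UMIs of the list, against 83.1% and 71.9% before thinning. At a limit of 5 UMIs the shares were 80.1% and 63.7%. Over all cells the difference depended on limit and depth: at least 5 UMIs were held by 60.9% and 52.0% of cells thinned to 1000 UMIs, but by 78.5% and 79.6% of cells thinned to 2000 UMIs, a difference of 1.03 points (-0.91 to 2.97). NK cell-like cells, which should lack these genes, gave 0 of 59 and 0 of 45 at the limit of 10 UMIs after thinning. These counts allow shares of up to 6.06% and 7.87%. At the limit of 5 UMIs the NK cell-like shares were 5.08% (1.06 to 14.1) in blood control and 0% in blood IR. The median depths were 2602.5 and 2539 UMIs in neutrophil-like cells and 3220 and 3406 in NK cell-like cells. Among all cells, 37 in blood control and 21 in blood IR were too shallow for this count.

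Within the clusters with at least 100 cells in each library the list's medians were nearer 0, at -0.02, -0.03, -0.22 and -0.24 in the 4 neutrophil-like clusters and 0.13 in the monocyte-like one, except for -0.86 in the nonclassical monocyte-like cluster. When these 6 clusters were summed the median was 0.21. Single genes could still differ, as Ngp did in 1 neutrophil-like cluster (58.5 and 28.7 CPM, -1.01, -1.58 to -0.47). UMIs in barcodes with fewer than 100 UMIs, which hold free RNA, were also richer in Ngp in the control library (405 against 165 CPM), and those barcodes mix RNA of both genotypes.

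For Ngp, Ltf and Camp the cKO control pool was apart from the other blood groups. In cells labelled WT, Ngp was at 120 CPM in blood control and 289 CPM in blood IR, Ltf at 39.1 and 80.1 CPM, and Camp at 13.7 and 54.1 CPM. The WT ratios ran the other way, at 1.27, 1.03 and 1.98. Lcn2 was at 576 and 743 CPM in WT, near the 664 CPM of cKO cells after IR. Of the 88 genes that were lower in cKO by at least 1 and also counted in WT, 23 were at least 1 log2 unit higher in cKO control than in each of the other 3 groups. For another 19 of the 88, cKO IR was at least 1 below each of the other 3 groups, and for 8 WT control was that far above. Over all 9532 genes counted in both, WT control was that far above the rest for 34 genes, cKO control for 23, cKO IR for 4 and WT IR for 1. A gene that far above in cKO control is lower in cKO IR by definition. The 23 genes of the 88 are therefore the same as the 23 of the 9532. These counts leave out the size of the gap, and its cause was not tested.

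**Figure D3:**
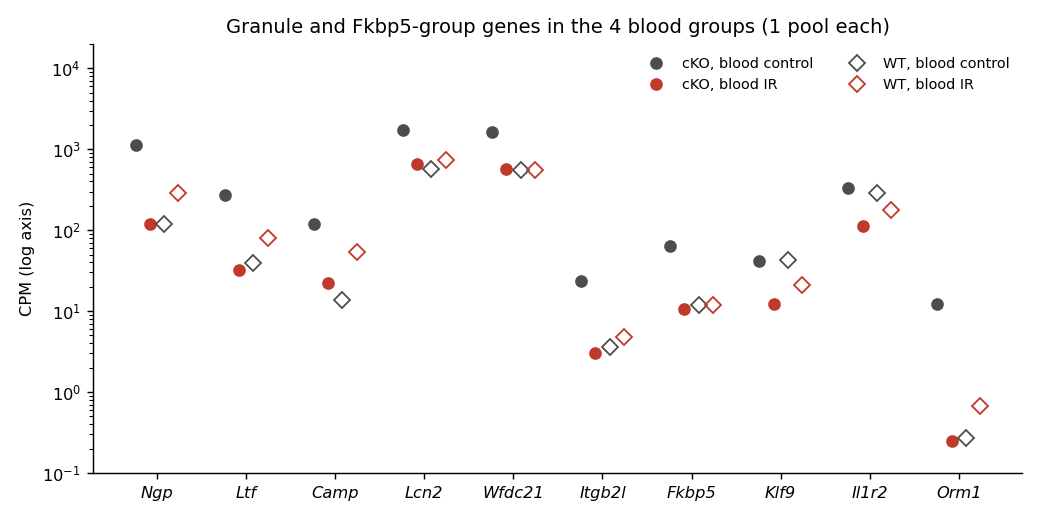
CPM on a log axis of 10 granule, acute phase and Fkbp5-group genes in the 4 blood groups, each 1 pool in 1 library. Filled circles are cells labelled cKO and open diamonds cells labelled WT, grey for blood control and red for blood IR. For Ngp the grey circle lies at 1122 CPM and the other 3 points between 120 and 289 CPM, whereas Klf9 and Il1r2 are high in both control groups.

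Orm1, the acute phase protein orosomucoid 1, had 247 UMIs in blood control and 5 after IR (12.2 and 0.25 CPM), a log2 ratio of -5.38 (-7.27 to -4.39). Its UMIs came from 52 control cells, of which the largest gave 42, and it was one of the leading genes of the granule-rich cluster. Saa3, another acute phase gene, was at 18.2 and 5.90 CPM (-1.62), whereas Hp, haptoglobin, was at 1573 and 1632 CPM (0.05). The acute phase list, which shares Lcn2 with the granule list, had a median of -0.88 over 6 genes. Of these, 3 were lower by at least 1 (1.0% of all genes counted were) and none was higher by 0.5.

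Primary granule genes were at low levels in these cells. Mpo, myeloperoxidase, had a ratio of -3.21, but 89 of its 91 control UMIs came from 1 cell. Elane, neutrophil elastase, was at 4.50 and 4.67 CPM, and Prtn3, proteinase 3, at 34.9 and 51.3 CPM (0.56). The list of 5 had 4 counted members and a median of -0.45, which rests in part on single control cells. Without the cell with the most UMIs in each library the ratios were 1.58 for Mpo and 1.26 for Elane. The list summed to 50.4 CPM in blood control and 59.6 CPM in blood IR, so no fall of these genes can be read from the median. Genes of mature neutrophils moved less. Their list had a median of -0.10 over 16 genes, 1 lower by at least 1 (Il1r2, with 1.0% of all genes counted that low) and none higher by 0.5. Retnlg, resistin-like gamma, was at 7506 and 4232 CPM (-0.83), Csf3r, the receptor of granulocyte colony-stimulating factor, at 977 and 1166 CPM (0.25), and Cxcr2, the receptor for neutrophil chemokines, at 676 and 812 CPM (0.26).

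Fkbp5, a co-chaperone of steroid receptors that glucocorticoids induce (chromosome 17, 28399094 to 28517527, minus strand), fell from 64.6 CPM in blood control to 10.7 CPM in blood IR in cells labelled cKO, a log2 ratio of -2.59 (-2.81 to -2.39). It was found in 859 control cells and 198 IR cells, and no cell gave more than 9 of its UMIs. It was lower in each of the main classes, by -2.71 in neutrophil-like cells (90.8 and 13.8 CPM), -0.77 in monocyte-like cells (15.4 and 8.95 CPM) and -3.42 in nonclassical monocyte-like cells (49.3 and 4.26 CPM). The highest cluster values were 178 CPM in the control cells of the neutrophil-like cluster led by Il1r2 and 165 CPM in the unnamed cluster found in blood control only. In cells labelled WT, Fkbp5 was at 11.9 CPM in both groups, and the cKO control pool was the highest of the 4 groups.

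Glucocorticoid-responsive genes were gathered as a list after the value of Fkbp5 had been seen, and the list is a description only. Of its 12 genes 10 were counted, 4 were lower by at least 1, 6 by at least 0.5 and none was higher by 0.5. The shares of all genes counted were 1.0%, 3.85% and 3.55%. Klf9, a zinc finger factor, was at 41.7 and 12.4 CPM (-1.75), Il1r2, the decoy receptor of interleukin 1, at 334 and 112 CPM (-1.58), and Ddit4, an inhibitor of mTOR signalling, at 21.7 and 10.6 CPM (-1.02). Per1, a clock gene, was at 89.5 and 54.3 CPM (-0.72). Tsc22d3, the glucocorticoid-induced leucine zipper, was at 362 and 346 CPM (-0.07), and Sgk1 at 69.0 and 64.5 CPM (-0.10). Unlike Fkbp5, Klf9, Il1r2 and Per1 were also lower after IR in cells labelled WT (-1.03, -0.70 and -0.83). The list's median was -0.66 in cKO and -0.59 in WT, and between -0.17 and -0.47 in the 6 clusters found in both libraries.

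Interferon-induced antiviral genes were higher after IR, and the rise was seen in neutrophil-like cells. Promoter stretches of members of this list are shown because their interferon-stimulated response elements (ISRE, GAAA, any 2 bases and GAAA, on either strand, in capitals) can be read in them. They come from the RefSeq table of 250 bases before to 50 after each gene start (GRCm38.p6) and read 5′ to 3′ along the gene.
Ifit1, chr19:34640770-34640828, plus strand: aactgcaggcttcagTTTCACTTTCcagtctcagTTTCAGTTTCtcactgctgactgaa
Ifit3, chr19:34583358-34583431, plus strand: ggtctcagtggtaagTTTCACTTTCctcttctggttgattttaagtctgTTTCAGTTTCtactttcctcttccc
Isg15, chr4:156200860-156200911, minus strand: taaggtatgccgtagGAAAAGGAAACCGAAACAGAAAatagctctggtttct
The same 74 bases as in Ifit3 stand upstream of Ifit3b, a near-identical copy, so reads of Ifit3 and Ifit3b are uncertain between them. In Isg15 the capitals join 3 overlapping matches. A match was found for 17 of 27 genes of the list with an entry (63.0%), against 3.99% of the 27025 genes in the table and 4.22% of the counted genes with an entry. A match in letters is a description and not a bound site.

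Ifit1, an RNA-binding antiviral protein, was at 24.97 and 53.1 CPM in blood control and blood IR (1.09, 0.94 to 1.25), and Ifit3b at 11.8 and 26.6 CPM (1.17, 0.95 to 1.40). Isg15, a ubiquitin-like modifier, was at 167 and 304 CPM (0.86, 0.80 to 0.93). Of 38 genes on the list 35 were counted, and each of the 35 had a ratio above 0. The median was 0.44, with 12 genes higher by at least 0.5, 2 higher by at least 1 and none lower by 0.5. All genes counted gave shares of 3.55% and 0.417% for these rises and 3.85% for that fall. In cells labelled WT the median was 0.39 over the 35 genes. Ifitm3, a membrane protein that blocks viral entry, was the least changed (3285 and 3429 CPM, 0.06), at the median of all genes.

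Guanylate-binding proteins and other GTPases induced by interferon gamma had a median of 0.51 over the 10 of 15 genes counted. Of the 10, 5 were higher by at least 0.5 (3.55% of all genes counted were) and none was lower. Gbp7 was at 47.9 and 83.6 CPM (0.80) and Igtp at 27.8 and 42.6 CPM (0.61). The receptors and signalling factors of the interferon pathway had a median of 0.07 over 13 genes, none past 0.5 in either direction.

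Within neutrophil-like cells, the median of the antiviral list was 0.83 over 32 genes, beside 0.14 for all genes of that class. Ifit3 had a ratio of 1.66 there, Ifi27l2a of 1.56, Slfn5 of 1.53 and Isg15 of 1.14 (229 and 508 CPM). In monocyte-like cells the median was 0.09 beside 0.01 for all genes, with Isg15 at 161 and 180 CPM and Rsad2, the antiviral enzyme viperin, at 25.2 and 16.5 CPM (-0.61). Of the 31 genes counted in both classes, all 31 had the higher ratio in neutrophil-like cells, 23 reached 0.5 there and none reached 0.5 in monocyte-like cells. Over all genes counted in each class, 10.8% reached 0.5 in neutrophil-like cells and 2.47% in monocyte-like cells, so the classes also differed in their background. The 2 classes come from the same pools, so that this difference between them has no replicate check either. In nonclassical monocyte-like cells the median was 0.42. With counts scaled by TMM factors, which set the median of all genes in neutrophil-like cells near 0, the list's median there was 0.69.

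**Figure D4:**
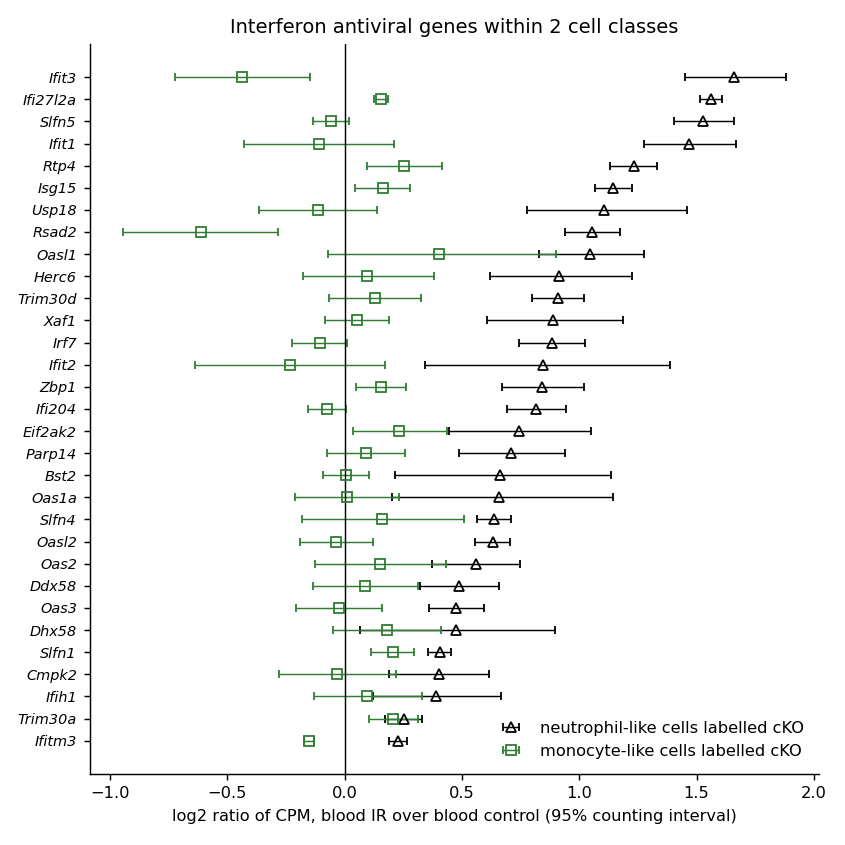
Log2 ratio of CPM in blood IR over blood control (horizontal axis) for the 31 interferon antiviral genes counted in both classes of cells labelled cKO. Triangles are neutrophil-like cells and squares monocyte-like cells, with 95% counting intervals. Every triangle lies to the right of its square, and the squares lie between -0.61 and 0.40.

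Within single neutrophil-like clusters the ratios were smaller. The 3 neutrophil-like clusters without interferon genes in the lead and with at least 100 cells in each library had list medians of 0.27, 0.18 and 0.28, and the cluster led by Ifit3b, Rsad2 and Ifit1 had -0.11. That cluster held 239 control cells and 679 IR cells. At 1000 UMIs per cell, 41.9% of neutrophil-like cells in blood control (40.1 to 43.8) and 67.4% in blood IR (65.7 to 69.1) held at least 5 UMIs of the list, and 13.8% and 32.9% held at least 10. At 5 UMIs the shares were 92.9% and 93.4% in monocyte-like cells and 1.69% and 0% in NK cell-like cells, of which 59 and 45 were counted. Before thinning, the neutrophil-like shares were 86.9% and 94.1%.

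Genes of mitosis were the highest of all after IR, at low levels. Promoter stretches of Ccnb2 and Ube2c are shown for the elements known from mitotic genes, the cell cycle homology region (CHR, TTTGAA) and the CCAAT box, both in capitals and searched on both strands.
Ccnb2, chr9:70421556-70421736, minus strand: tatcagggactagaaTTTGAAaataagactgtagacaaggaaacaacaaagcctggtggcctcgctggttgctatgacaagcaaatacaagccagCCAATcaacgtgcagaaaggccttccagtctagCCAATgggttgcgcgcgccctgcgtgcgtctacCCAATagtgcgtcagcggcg
Ube2c, chr2:164769728-164769920, plus strand: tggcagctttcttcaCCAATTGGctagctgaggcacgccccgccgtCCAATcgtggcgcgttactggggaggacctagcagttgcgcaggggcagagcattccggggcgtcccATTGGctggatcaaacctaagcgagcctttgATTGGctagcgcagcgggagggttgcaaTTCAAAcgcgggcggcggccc
The first stretch holds 1 CHR and 3 CCAAT matches and the second 1 CHR and 5 CCAAT matches, of which 2 overlap each other on opposite strands. Birc5 and Stmn1 were searched too but gave no stretch, for want of an entry or of a match near the start. Of the 10 list genes with an entry, 7 had a CHR and 9 a CCAAT match, against 20.2% and 41.1% of all genes in the table. Among the counted genes with an entry the shares were 14.1% and 42.7%.

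Ccnb2, the mitotic cyclin B2, was at 1.38 CPM in blood control (28 UMIs in 17 cells) and 21.97 CPM in blood IR (447 UMIs in 149 cells), a log2 ratio of 3.94 (3.44 to 4.59). Birc5, the chromosomal passenger protein survivin, had 11 UMIs in 4 control cells and 201 UMIs in 80 IR cells (4.07, 3.31 to 5.21). Ube2c, a ubiquitin-conjugating enzyme of the anaphase-promoting complex, was at 3.81 and 22.1 CPM (2.52, 2.19 to 2.91), and Mki67, the proliferation antigen, at 3.56 and 10.6 CPM (1.56, 1.18 to 1.98). In blood IR no cell gave more than 11 UMIs of any of these 4 genes, whereas in blood control 1 cell gave 10 of the 28 Ccnb2 UMIs and 7 of the 11 Birc5 UMIs. The ratios in cells labelled WT were alike in direction, at 3.68 for Ccnb2, 3.96 for Birc5, 1.83 for Ube2c and 1.41 for Mki67.

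Of the 25 genes on the G2 and mitosis list, 12 were counted, 7 of them higher by at least 1 and 8 by at least 0.5. Over all genes, 0.417% and 3.55% were that much higher. Several members passed the minimum of 100 UMIs only through blood IR, among them Birc5 (11 control UMIs) and Ccnb2 (28). For such members a ratio of at least 1 was close to fixed in advance. The counts of higher members and the median (1.60) are therefore a description, and the shares over all genes lend them no weight. The list's summed level moved little, at 1267 and 1501 CPM in cKO and at 1393 and 1368 CPM in WT. Most of that sum was Hmgb2, a chromatin protein gene that resting cells also express, at 1016 and 1097 CPM in cKO (0.11), and neutrophil-like cells held 56.1% of the list's UMIs in blood control and 52.3% after IR. The 13 members under the minimum had 163 UMIs together in blood control and 336 after IR, with more UMIs after IR in 11 of the 13. The counted genes of the S phase list moved less. Its 9 members under the minimum had 254 UMIs together in blood control and 341 after IR, with more UMIs after IR in 6 of the 9. Pcna, the polymerase clamp, was at 49.8 and 46.2 CPM (-0.11), Mcm5, a subunit of the replicative helicase, at 4.89 and 5.75 CPM (0.23), and only Pclaf, a partner of Pcna, exceeded 0.5 (3.51 and 11.1 CPM, 1.64), with a median of 0.15 over 10 counted genes.

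Ccnb2, Birc5, Ube2c and Mki67 had their higher levels in monocyte-like cells. Ccnb2 was at 3.93 and 41.6 CPM there (3.36), and at 0.25 and 0.89 CPM in neutrophil-like cells. Birc5 was at 1.79 and 19.0 CPM in monocyte-like cells and had no UMI in neutrophil-like cells of blood control. Other genes with high ratios were found in the same class, among them Gpx3, a secreted glutathione peroxidase (8.22 and 18.67 CPM), and Nnmt, nicotinamide N-methyltransferase (1.97 and 7.89 CPM). With the 6 shared clusters only, which leave out the cycling cluster of 5 control and 88 IR cells, the list's median was 0.15. With clustering that ignored the interferon and cell cycle genes, the monocyte-like share still rose from 10.3% to 15.4%. That clustering also left 156 control cells and 0 IR cells in an unnamed cluster led by Klf9.

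Nonclassical monocyte genes were lower after IR in the sum of all cells. Cd36, a scavenger receptor, was at 19.2 and 4.57 CPM (-2.06), Fabp4, a fatty acid-binding protein, at 20.4 and 2.90 CPM (-2.79), Cd300e at 10.8 and 2.16 CPM (-2.30), Ace, angiotensin-converting enzyme, at 158 and 80.7 CPM (-0.97), and Cx3cr1, the fractalkine receptor, at 177 and 108 CPM (-0.71). Nr4a1 was at 346 and 168 CPM (-1.04). All 14 genes of the list were counted. Of them 12 were lower by at least 0.5 (369 of 9593 genes, 3.85%, did so in all), 6 were lower by at least 1, and none was higher by 0.5. The median was -0.95 in cells labelled cKO and -0.18 in cells labelled WT. Within nonclassical monocyte-like cells the median was -0.34, beside 0.03 for all genes there. Fewer cells and less RNA per cell cannot be told apart in a sum. The nonclassical monocyte-like cells had a median of 8879 UMIs in blood control and 10914 in blood IR.

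These nonclassical monocyte-like cells of blood control also carried UMIs of other lineages. Ngp was at 332 CPM in them, from 25 of 436 cells with at most 609 UMIs in 1 cell, and at 2.13 CPM after IR, from 3 of 126 cells. Hbb-bs, a beta globin gene, was at 893 CPM, from 69 cells with at most 1624 UMIs in 1 cell, and at 4.97 CPM after IR. S100a8, a neutrophil calcium-binding protein gene, was at 5639 and 3127 CPM. The part of such cells in the change of the class was not tested. Of 5746 genes counted within the class, 5 were higher by at least 1 (0.0870%) and 39 lower (0.679%). The highest was Ly6a, a surface antigen that interferon induces, at 2.15, and the lowest, after globin and granule genes, were Cxcl9 at -3.57, whose control UMIs came almost all from 1 cell, and Fkbp5.

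Class II antigen presentation genes were lower in the sum. H2-Aa was at 444 and 240 CPM (-0.89), H2-Ab1 at 375 and 211 CPM (-0.83) and Cd74, the invariant chain, at 1688 and 1046 CPM (-0.69). The 8 counted of 10 genes had a median of -0.56, and the WT median was -0.57. Of the 8, 4 were lower by at least 0.5 (3.85% of all genes counted were) and none by 1 (1.0%). Within monocyte-like cells the median was 0.00 and within nonclassical monocyte-like cells, whose leading genes included class II genes, 0.44. Dendritic cell-like cells, which are known for these genes, numbered 55 in blood control and 28 in blood IR. Classical monocyte genes had a median of 0.28 over 13 genes in the sum and -0.02 within monocyte-like cells. Ly6c2 was at 652 and 1067 CPM (0.71), F13a1, a coagulation factor subunit gene, at 272 and 423 CPM (0.64), and Csf1r, the receptor of macrophage colony-stimulating factor, at 388 and 307 CPM (-0.34).

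Within monocyte-like cells, 8143 genes were counted, 25 were higher by at least 1 (0.307%) and 29 lower (0.356%). The higher genes included the mitotic genes and Lyz1 (171 and 390 CPM, 1.19, uncertain against Lyz2). Among the lower genes were targets of NF-kB, the transcription factor of inflammatory signalling. Cxcl2, a neutrophil chemokine, was at 114 and 31.4 CPM (-1.86), Tnfaip3, the deubiquitinase A20, had a ratio of -1.36, and Nfkbia, the inhibitor IkBa, was at 648 and 298 CPM (-1.12). Apoe, apolipoprotein E, had a ratio of -2.33 in monocyte-like cells and 1.73 in neutrophil-like cells. The NF-kB target list had medians of -0.40 in monocyte-like and 0.22 in neutrophil-like cells.

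In the sum of all cells the NF-kB target list had a median of -0.25 over 23 of 24 genes, with 9 lower by at least 0.5 and none higher. Immediate early genes, which respond within minutes to handling as well as to signals, had a median of -0.31 in cKO (-0.65 in WT), with 7 of 21 lower by at least 0.5. For both lists the share of all genes counted that were lower by at least 0.5 was 3.85%. Egr1 was at 515 and 350 CPM (-0.56) and Jun at 344 and 220 CPM (-0.65), while Fos was at 2489.8 and 2225 CPM (-0.16). In monocyte-like cells their median was -0.60, and in neutrophil-like cells 0.03. Heat shock genes had a median of -0.23, led by Hspa1b (10.2 and 3.79 CPM, -1.42) and Hspa1a (13.4 and 5.16 CPM, -1.37).

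Within neutrophil-like cells, 6103 genes were counted, 62 were higher by at least 1 (1.02%) and 80 lower (1.31%). The median of all genes was 0.14, and with TMM factors, which remove this shift, 34 were higher. S100a8 and S100a9, the most abundant transcripts of these cells, were at 105039 and 71196 CPM and at 127094 and 104974 CPM in blood control and blood IR. Chil3, Ngp, Ltf, Itgb2l and Fkbp5 were among the lowest. Mcam, a cell adhesion molecule, was at -3.08 and Snai1, a zinc finger repressor, at -2.15. Steap4, a metalloreductase, was higher at 1.31 (59.1 and 147 CPM). When only the neutrophil-like clusters found in both libraries were summed, 5 genes were higher and 9 lower.

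**Figure D5:**
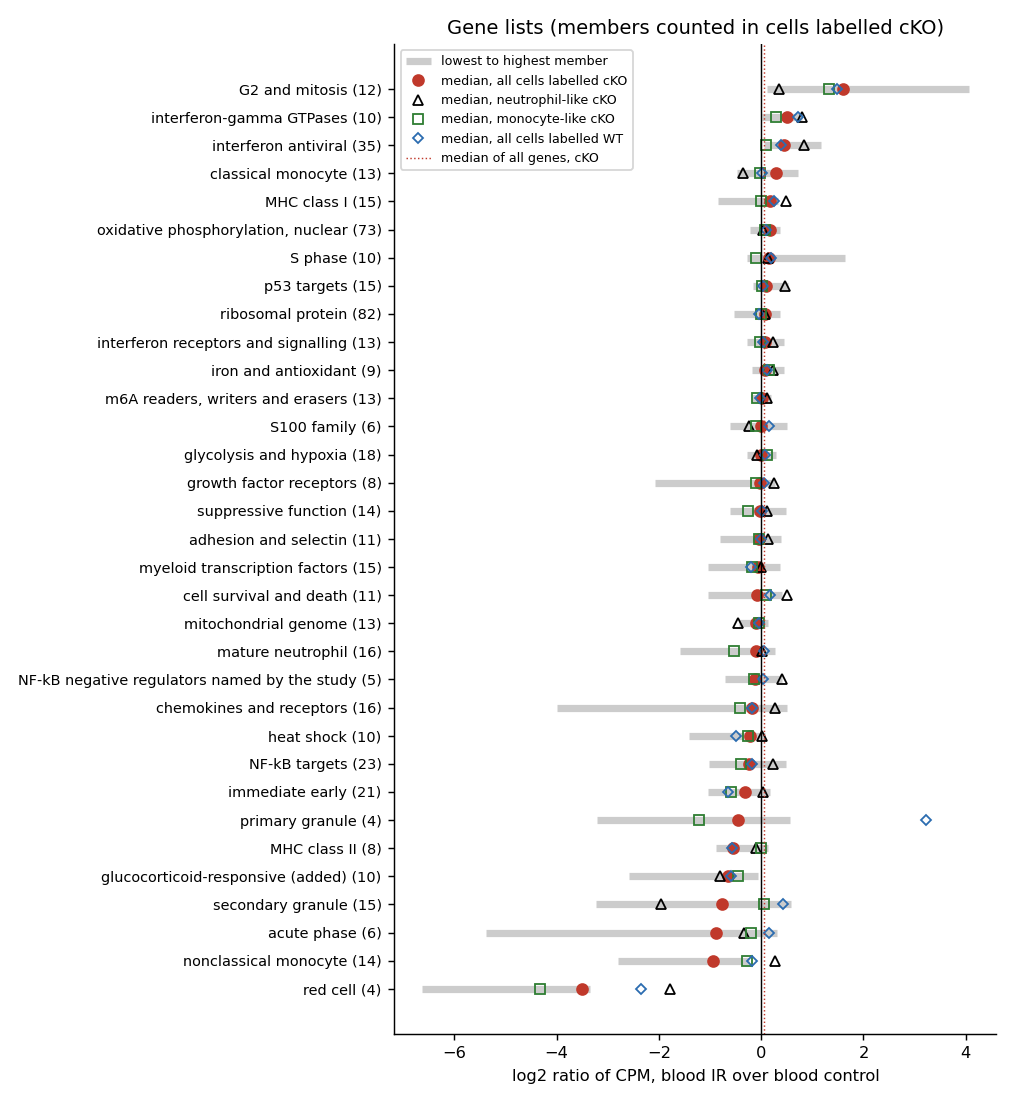
Log2 ratio of CPM in blood IR over blood control (horizontal axis) for each gene list, with the number of members counted in cells labelled cKO in brackets. Grey bars span the members, red circles are medians over all cells labelled cKO, triangles and squares medians within neutrophil-like and monocyte-like cells, and blue diamonds medians in cells labelled WT. The dotted line is the median of all genes (0.06). The secondary granule list lies at -0.77 in cKO and 0.43 in WT, while the G2 and mitosis list lies at 1.60 and 1.49. Several members of the latter list passed the minimum of UMIs only through blood IR.

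The 17 other lists, interferon receptors included, had medians between -0.19 (chemokines and their receptors) and 0.17 (class I antigen presentation). Over their 337 counted entries none was higher by at least 1 and 6 were lower, beside 0.417% and 1.0% of all genes counted. Among the 6 were Flt3, a cytokine receptor of progenitors and dendritic cells (11.2 and 2.61 CPM, -2.08), and Bcl2, an inhibitor of apoptosis (19.5 and 9.44 CPM, -1.04). Targets of p53, the factor that responds to DNA damage, had a median of 0.10 over 15 genes. Ccng1 was the highest of the counted genes at 24.2 and 34.7 CPM (0.52), and Cdkn1a, the cell cycle inhibitor p21, was at 71.4 and 78.3 CPM (0.13). The 5 members under the minimum of 100 UMIs had 10 UMIs together in blood control and 51 after IR, nearly all from Phlda3, an inhibitor of Akt signalling. Phlda3 had 1 UMI in 1 control cell and 48 UMIs in 25 IR cells, with at most 4 in a cell. In blood IR its UMIs came from 12 of 126 nonclassical monocyte-like cells (25 UMIs) and 12 of 786 monocyte-like cells (20 UMIs), and none from the 2930 neutrophil-like cells. In cells labelled WT it had 10 UMIs in 9 control cells and 38 UMIs in 30 IR cells. Genes of the N6-methyladenosine machinery had a median of 0.02 over 13 genes, none past 0.5.

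Some of the largest ratios rested on red cells or on single barcodes. Hbb-bt, a beta globin gene, was at 235 CPM in blood control and 2.31 CPM in blood IR (-6.64, -7.12 to -6.26), and 1344 of its 4755 control UMIs came from 1 cell. The 4 counted globin genes were lower by at least 3.34 in cKO cells, and lower in WT cells as well (-1.97 to -2.59). Red cell-like cells numbered 7 and 3, and Hbb-bs also differed among barcodes of under 100 UMIs (2408 and 1017 CPM). None of the 6 platelet genes reached 100 UMIs, and together they had 72 UMIs in blood control and 5 after IR. Igkc had a ratio of 2.34, but 4456 of its 4808 UMIs in blood IR came from 1 B cell-like barcode, and without the barcode with the most UMIs in each library the ratio was -1.30. In 3 of the 96 lower genes a single control cell held more than 50% of the control UMIs, and in 3 of the 40 higher genes a single IR cell did so in blood IR.

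The change after IR was set beside that of the WT cells in the same 2 libraries. Of 9532 genes counted in both, 14 were higher and 20 lower by at least 1 in both, and 7 were lower in cKO and higher in WT, while none was higher in cKO and lower in WT. The cKO ratio was at least 1 above the WT ratio for 28 genes and at least 1 below it for 87. The interaction has no replicate and was not tested. Below WT were, after Mpo and Cxcl9, which rested on single cells, Elane (0.05 in cKO and 5.09 in WT, with 58 of its 91 cKO control UMIs in 1 cell and a cKO ratio of 1.26 without the top cells), Ngp, Camp and Ltf, Htra3, a serine protease gene (-1.07 and 2.71), and Itgb2l. Above WT were Lyz1 (0.58 and -0.95) and Ptgs2, the prostaglandin synthase COX-2, which was at 137 and 192 CPM in cKO (0.49) and 466 and 289 CPM in WT (-0.69). Rasip1 was at 3.02 and 5.75 CPM in cKO (0.92) and 10.1 and 7.799 CPM in WT (-0.38). The medians in cKO and WT were 0.51 and 0.72 for the interferon gamma list, 1.60 and 1.49 for the mitotic list and -0.56 and -0.57 for the class II list. Those of the mitotic list are a description only, since several members passed the minimum of UMIs only through blood IR.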

How the data were processed

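Single-cell 3′ libraries were analysed from the raw count matrices that the authors deposited, which hold UMI counts per gene or hashtag and barcode before any filter on cells. The submitters' notes name Cell Ranger 6.0.1 and Seurat 4.0.6, whereas the matrix headers name Cell Ranger 4, so the version behind the counts is uncertain. The build was mm10.

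Barcodes with at least 500 UMIs, 200 genes, at most 25% mitochondrial UMIs and 20 hashtag UMIs were kept and labelled by a hashtag ratio of at least 4, which leaves 649 and 492 mixed barcodes out. Doublets were removed only in that way, since the automatic limit of Scrublet (scanpy 1.11.5) marked only 1 barcode per blood library. Doublets of cells of the same genotype were thus left in. The top 6% of its scores took 38.8% of mixed barcodes in blood control and 32.1% in blood IR, against 3.26% and 3.86% of cells labelled cKO. Leaving out that top 6% was an alternative. Cells labelled cKO were clustered in Seurat 5.3.0 (2000 variable genes, 40 components, resolution 0.8), and a cluster was named from at least 3 raised markers. UMIs were summed per library. The log2 ratio had 1 UMI added to each sum, scaled to depth, and a gene was counted from 100 UMIs. Intervals are exact conditional binomial (ratios), Clopper-Pearson (shares) and Newcombe (differences of shares), and cover counting error only. TMM factors came from edgeR 4.0.16, with no test. The ratio was tested on counts simulated as independent for each gene, which leave out the clumping of UMIs in single cells. Genes named were the 20 highest and 20 lowest ratios among genes found in at least 20 cells, up to 6 members per list, members needed to describe a function, the label checks, and the 10 largest differences from WT in each direction. Other genes, such as Steap4, Phlda3, Cd14 and the leading genes of clusters and classes, were named after their values were seen. The members, lists and comparisons were chosen with earlier results of these data known. Promoter stretches came from RefSeq, and gene positions from GENCODE, both on GRCm38. Alternatives covered the filters, hashtag ratio, resolution, scaling, UMIs added and minimum UMIs per gene.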

Additional observations from a re-analysis of the deposited data

Results flagged for a closer look

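For 7 genes the ratio of blood IR to blood control was at or below -1 on the log2 scale in cells labelled cKO and at or above 1 in cells labelled WT, each from 1 pool per group, and the difference was not tested. Ngp was at -3.22 in cKO and 1.27 in WT. Ltf was at -3.06 and 1.03, and Camp at -2.43 and 1.98. Htra3, a serine protease gene, was at -1.07 and 2.71, and Cish, an inhibitor of cytokine signalling, at -1.01 and 1.70. Mpo was at -3.21 and 4.69 and Cxcl9 at -3.99 and 1.69, but 89 of the 91 Mpo UMIs and 146 of the 157 Cxcl9 UMIs of cKO blood control came from 1 cell each.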

How the results depend on the processing

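No paired analysis was possible because each group was 1 pool in 1 library and no result came from a test, and no replicate could be left out. Of the 40 higher and 96 lower genes, the numbers became 156 and 267 with a minimum of 20 UMIs per gene, and 15 and 52 with 300. With neutrophil-like and monocyte-like cells only 66 were higher, and with the class shares of blood control applied to both groups 292 were higher, a setting in which the unnamed class has only 11 IR cells. In neutrophil-like cells the 62 higher and 80 lower genes became 232 and 204 with 20 UMIs, 30 and 42 with 300, and 5 and 9 with only clusters of at least 100 cells in each library (added after the data were seen), and 34 were higher with TMM factors.

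With those shared clusters only, the medians were 0.18 for the interferon antiviral list, 0.15 for the G2 and mitosis list, and 0.21, a reversed sign, for the secondary granule list. The G2 and mitosis median was 0.63 with 300 UMIs, 0.97 with the mean of per-cell CPM and 0.92 with control class shares. The secondary granule median was -1.11 with neutrophil-like and monocyte-like cells only, -0.84 without the unnamed cluster found in blood control only (added), -1.06 with 300 UMIs, -0.83 with TMM and with size factors, -1.05 with the mean of per-cell CPM and -1.12 with control class shares. The difference in the monocyte-like share was 2.09 points at resolution 0.4, at which most monocytes were unnamed, and 0.816 with a hashtag ratio of 10. That in the nonclassical share was -5.57 at resolution 1.2, -5.88 without the interferon and cell cycle genes, -5.43 with a hashtag ratio of 10, -5.46 with at most 10% mitochondrial UMIs and -5.54 without the top 6% by Scrublet. Signs also changed for the class II list (0.39 with neutrophil-like and monocyte-like cells only, 0.27 with control class shares), the acute phase list (0.39, shared clusters), Igkc (-1.44 without the 1% of cells with most UMIs, -1.30 without the top barcode) and Cd300e (0.061, control class shares). The causes were not tested. Beyond these, 1049 single values moved by less than their counting interval and 229 by more. With 1 pool per group, depth limits only the counting error, and the spread between mice is unknown.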
